A study of Caenorhabditis elegans with 6 samples.

Results

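The genes described here are the *C. elegans* relatives of Hedgehog signalling proteins and the genes of patched-related, astacin and cuticlin proteins, followed in whole day 4 adult worms after *unc-62* RNAi. They were taken by name, as every gene whose symbol starts with wrt, grd, grl, hog, qua, ptr, ptc, nas, cut or cutl followed by a number. The current annotation holds 160 such symbols, of which 128 were among the measured transcripts. The transcript with the highest mean was taken for each gene, and 45 genes had 10 or more reads summed over the 6 libraries, out of 17682 genes measured.

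The worms were of the sterile strain TJ1060, with the genotype fem-15(b26);spe-9(hc88) as the labels spell it, and both groups carried these alleles. The worms grew at 25°C in 3 batches of some 10000, and each batch was shared out between the treatments on day 1 of adult life. They then spent 3 days at 20°C on bacteria with an empty vector (control RNAi) or bacteria expressing double-stranded RNA of *unc-62*, which encodes a homeodomain transcription factor of the Meis family. This gave 3 libraries of each group, made from whole worms of a strain whose sterility comes from sperm defects, and FUDR was on the plates of both groups. Libraries were enriched for the 3′ ends of polyadenylated RNA, and values are RPM, the reads of a transcript scaled to the uniquely mapped reads of its library. The control libraries ran in 1 sequencing lane and the *unc-62* libraries in another, so lane and treatment cannot be told apart.

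Nematodes have a large set of secreted proteins related to Hedgehog, grouped as warthog (WRT), groundhog (GRD), ground-like (GRL), hedgehog-like (HOG) and quahog (QUA), but lack a clear counterpart of Smoothened, the signal transducer of the pathway in flies and vertebrates. Patched (PTC) and patched-related (PTR) proteins span the membrane many times and hold a sterol-sensing domain. Many genes of these families are best known from larval worms, where they act in the epidermis, in moulting and in the lining of small tubes. Astacins (NAS) are secreted zinc metalloproteases, some of which process or shed cuticle. Cuticlins are the part of the cuticle that stays insoluble when the collagens are dissolved, and the cuticlin-like (CUTL) proteins mostly carry a zona pellucida domain.

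Few of these genes had many reads in day 4 adults. Of the 128 measured, 35.2% had 10 or more reads over the 6 libraries, against 63.1% of all 17682 genes. A total of 13 had no read in any library, which allows a level of up to 0.0267 RPM (3 reads over the 6 libraries, counting error only), and 70 had 1 to 9 reads. Among the Hedgehog-related genes 20 of 61 symbols passed, among the patched group 12 of 27, among the astacins 7 of 37 and among the cuticlin group 6 of 35. The patched group thus kept the largest share by symbol and the cuticlin group the smallest, counting also the 32 symbols that were not analysed here. No *hog* gene passed, while the single *qua* gene did.

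**Figure D1:**
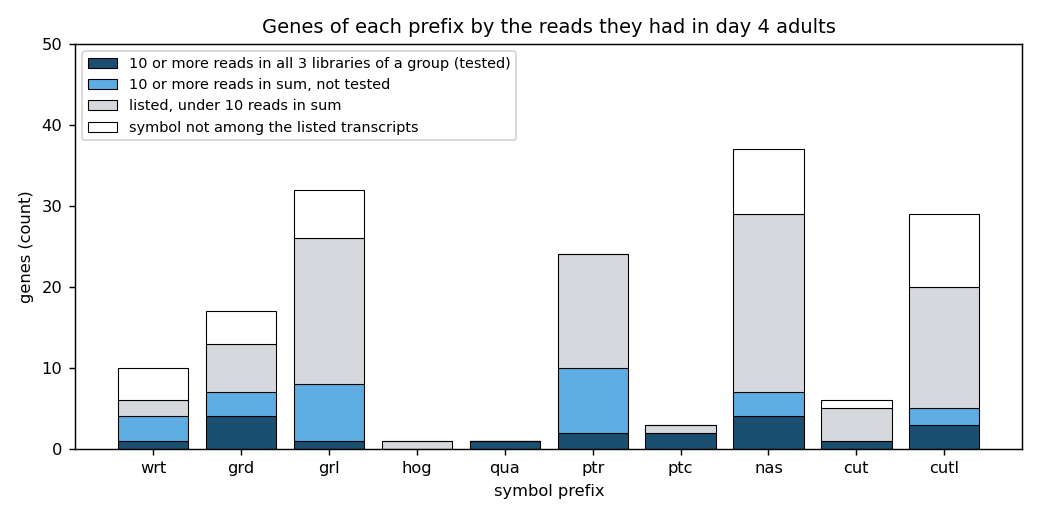
Number of genes of each symbol prefix (vertical axis, counts) by the reads they had over the 6 libraries, with the tested genes at the base of each bar. Of the 160 symbols, 19 reached 10 reads in all 3 libraries of a group, and grl and nas had the most symbols with under 10 reads.

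A gene was tested where it had 10 or more reads in all 3 libraries of either group, which held for 7333 genes and for 19 of the 45: 7 Hedgehog-related, 4 patched, 4 astacin and 4 cuticlin genes. This filter took 14.8% of the measured symbols of these families and 41.5% of all genes. The tested genes had 87 to 2338 reads over the 6 libraries. The median of their mean levels was 2.54 RPM, and that of all tested genes 3.52 RPM. With 15188765 to 22868980 mapped reads a library, 1 read was worth 0.0437 to 0.0658 RPM, and the other 26 genes could be described only by their reads.

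None of the 19 passed limma's test at a Benjamini-Hochberg adjusted p under 0.1 over all 7333 genes, with the replicate number as a block. The same test called 1.31% of all tested genes, 0.818% lower and 0.491% higher upon *unc-62* RNAi. The gene nearest to the threshold was *cut-2*, at an adjusted p of 0.12. At an unadjusted p under 0.05 there were 2 of the 19, *cut-2* and *qua-1*, against 13.4% of all tested genes. edgeR's quasi-likelihood test on the recovered reads called 0 of the 19. DESeq2 called *cut-2* alone of the 19, where it called 192 of all 7333 genes lower and 102 higher. Rank products within replicates also called *cut-2* alone, where the background was 1.57% lower and 0.914% higher.

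The fitted fold changes stood on both sides of 0, with 11 above and 8 below and a median of 0.12 on the log2 scale (all tested genes, 0.04). Log2 fold changes are of RPM + 0.05, *unc-62* RNAi against control RNAi, which understates the change of genes with low levels. Apart from *cut-2* the values ran from -0.80 to 1.25, and 17 of the 18 lay within 1 log2 unit of 0. Their standard errors (SE) ran from 0.20 to 0.81, with the same median as all tested genes, 0.26. The direction was the same in all 3 replicates for 7 of the 19, 4 lower and 3 higher, against 36.2% of all tested genes. The RPM of the 3 control and the 3 *unc-62* libraries did not overlap for 2 of the 19, *cut-2* and *qua-1*, both lower upon *unc-62* RNAi, against 13.4% of all tested genes. These shares were near or under the background.

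**Figure D2:**
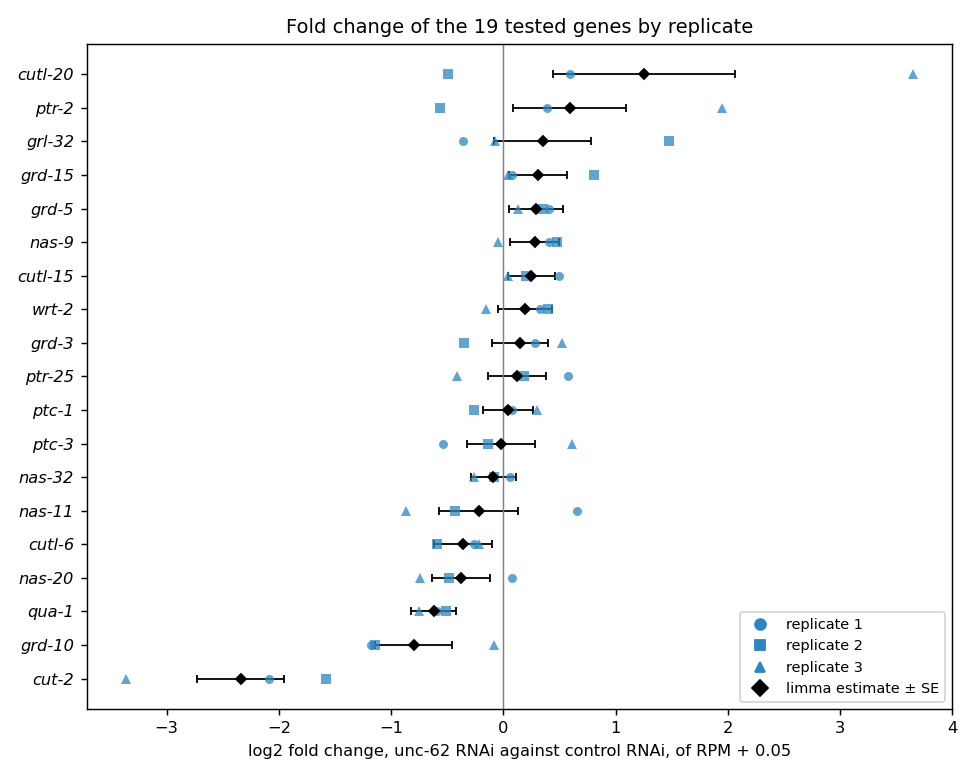
Log2 fold change of RPM + 0.05 (horizontal axis) of the 19 tested genes, for each replicate (blue symbols) and as limma's estimate with its SE (black diamonds). *cut-2* lies at -2.34, all 3 of its replicates are under -1.5, and the triangles of replicate 3 lie farthest out for *cutl-20* and *ptr-2*.

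Among the Hedgehog-related genes, *grd-3* had the most reads. It stood at 13.8, 28.2 and 13.1 RPM in control replicates 1 to 3 and at 17.1, 23.4 and 18.6 RPM upon *unc-62* RNAi. The *unc-62* libraries all fell inside the range of the controls. The log2 fold change of *grd-3* was 0.15 (SE 0.25, n = 3 a group, limma adjusted p = 0.84), and it was -0.01 without replicate 3. In the current annotation *grd-3* lies between *grd-13* and *grd-10* on the same strand of chromosome IV, with no other protein-coding gene between them.

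*qua-1*, whose quahog protein is needed for normal moulting of larvae, had lower levels in every *unc-62* library. Its controls stood at 3.16, 2.87 and 3.35 RPM and its *unc-62* libraries at 2.10, 2.10 and 1.95 RPM. The means were 3.13 ± 0.246 and 2.05 ± 0.0894 RPM (SD, n = 3 each), so the gap between the groups was wider than the spread within either. The log2 fold changes of *qua-1* in replicates 1, 2 and 3 were -0.59, -0.51 and -0.75. limma's estimate for *qua-1* was -0.62 (SE 0.20), and its adjusted p of 0.28 did not pass. The lowest and highest estimates when 1 replicate was left out were -0.67 and -0.53.

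*grd-10*, a groundhog gene, was lower in replicates 1 and 2 and near even in replicate 3. It had 15, 29 and 15 reads in the controls and 7, 18 and 12 reads upon *unc-62* RNAi, and these ranges overlapped. Its log2 fold change was -0.80 (SE 0.34, limma adjusted p = 0.41). Without replicate 3 it was -1.14 with a limma adjusted p of 0.057, which would pass the threshold. That fit called 705 of all tested genes lower and 460 higher. *grd-10* met the read filter only through the controls, where it was higher. *grl-32*, annotated as a pseudogene, stood highest of the tested Hedgehog-related genes at 0.35 (SE 0.43, limma adjusted p = 0.78). Its reads were 16, 13 and 21 in the controls and 14, 53 and 17 in the *unc-62* group, where 1 library stood apart from the other 5. Without replicate 2 the fold change of *grl-32* was -0.21.

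The 3 other tested Hedgehog-related genes differed little between the groups. *grd-15* stood at 2.90, 0.994 and 1.12 RPM in the controls and at 3.09, 1.88 and 1.13 RPM upon *unc-62* RNAi, with a log2 fold change of 0.31 (SE 0.26). *grd-5* had a log2 fold change of 0.29 (SE 0.24), and the warthog gene *wrt-2* had one of 0.19 (SE 0.24). By replicate, *grd-15* (0.08, 0.81 and 0.04) and *grd-5* (0.41, 0.35 and 0.13) were higher in 3 of 3. *wrt-2* was lower in replicate 3, at -0.15. The 3 genes had limma adjusted p values of 0.69, 0.68 and 0.79. *grd-15* and *wrt-2* were highest in the 2 libraries of replicate 1, and the control of that replicate was over its 2 partners by more than the difference between the groups. Over the 7 tested genes of the family, 5 had fold changes above 0 and 2 below, with a median of 0.19. All 20 Hedgehog-related genes with 10 or more reads summed to 30.2 ± 8.27 RPM (control RNAi) and 32.0 ± 4.2 RPM (*unc-62* RNAi), as mean ± SD with n = 3 each.

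**Figure D3:**
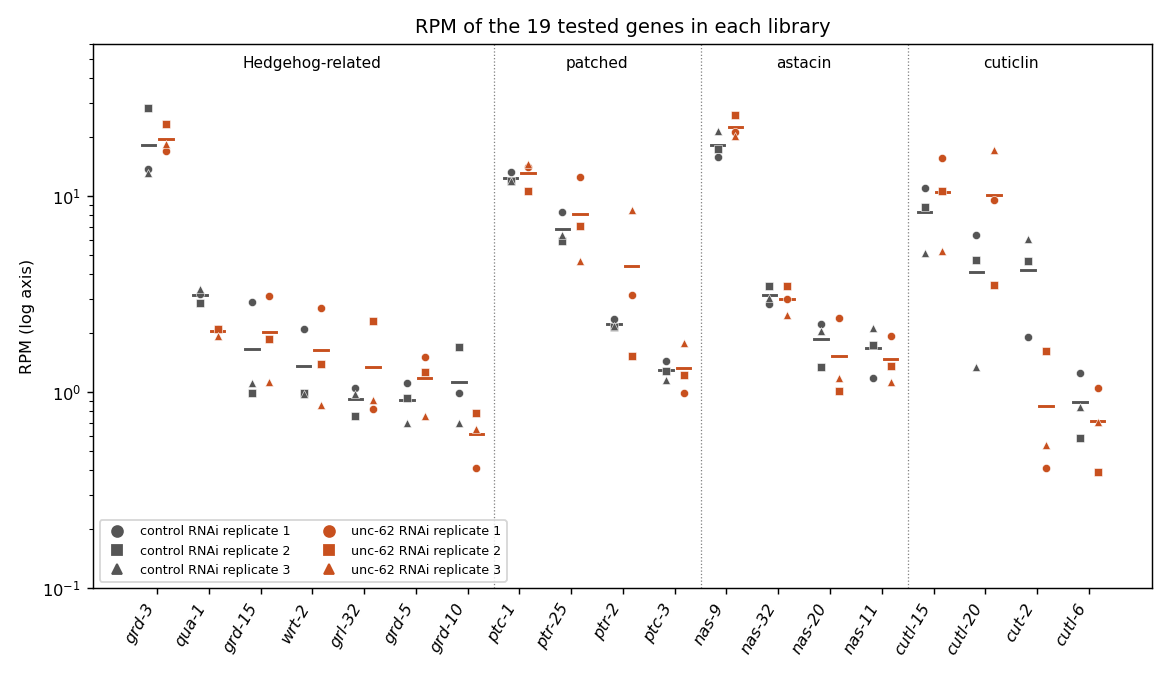
RPM (log axis) of the 19 tested genes in each library, with control RNAi in grey and *unc-62* RNAi in orange, a symbol for each replicate and a line at each group's mean. The groups are apart for *cut-2* and *qua-1* and overlap for the other 17.

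*ptc-1* encodes one of the worm's Patched proteins, known for its role in cytokinesis in the germline. Its levels were 13.4, 12.0 and 12.0 RPM in the controls and 14.2, 10.6 and 14.6 RPM upon *unc-62* RNAi. The lowest and the highest library both belonged to the *unc-62* group, and its highest was 1.38 times its lowest, the narrowest range of the 19. The log2 fold change of *ptc-1* was 0.04 (SE 0.22, limma adjusted p = 0.96), and -0.07 without replicate 3. *ptc-3*, the other Patched gene with enough reads, had 22, 22 and 25 reads in the controls and 17, 28 and 33 upon *unc-62* RNAi. Its log2 fold change was -0.02 (SE 0.30, limma adjusted p = 0.99), with replicates 1 and 3 on opposite sides of 0, and it was 0.25 without replicate 1 and 0.04 without replicate 2. Among the symbols of this prefix *ptc-2*, annotated as a pseudogene, did not reach 10 reads.

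Of the patched-related genes, *ptr-25* and *ptr-2* were tested. *ptr-25* had 8.30, 5.91 and 6.34 RPM in the controls and 12.6, 7.04 and 4.70 RPM upon *unc-62* RNAi. Replicates 1 and 2 were higher and replicate 3 lower, with a log2 fold change of 0.12 (SE 0.26, limma adjusted p = 0.89) that was -0.11 without replicate 1. *ptr-2* stood at 2.37, 2.16 and 2.19 RPM in the controls, which differed by little. Upon *unc-62* RNAi it stood at 3.15, 1.53 and 8.49 RPM, so the *unc-62* libraries lay on both sides of the controls and the third was far above the other 5. The log2 fold change of *ptr-2* was 0.59 (SE 0.50, limma adjusted p = 0.69), and -0.06 without replicate 3. The 12 patched genes with 10 or more reads summed to 24.9 ± 2.17 RPM (control RNAi) and 29.5 ± 5.47 RPM (*unc-62* RNAi), as mean ± SD with n = 3 each.

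*nas-9* had the most reads of all 45 genes, at 2338. Its levels were 15.9, 17.5 and 21.5 RPM in the controls and 21.4, 25.9 and 20.4 RPM upon *unc-62* RNAi. The third control stood above the lowest *unc-62* library, and above the first by a small margin. The log2 fold change of *nas-9* was 0.28 (SE 0.22, limma adjusted p = 0.68), from 0.41 and 0.48 in replicates 1 and 2 and -0.05 in replicate 3.

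The other tested astacins all had estimates under 0, and none of them passed the test. *nas-32* stood at 2.83, 3.51 and 3.03 RPM in the controls and 2.98, 3.50 and 2.49 RPM upon *unc-62* RNAi, with a log2 fold change of -0.09 (SE 0.20, limma adjusted p = 0.88). *nas-20* stood at 2.24, 1.34 and 2.05 RPM and then at 2.39, 1.01 and 1.19 RPM, with a log2 fold change of -0.38 (SE 0.26, limma adjusted p = 0.64). *nas-11* had a log2 fold change of -0.22 (SE 0.35, limma adjusted p = 0.84), positive in replicate 1 and negative in the others. The groups overlapped for all 4 tested astacins. Without replicate 3 the estimate of *nas-11* was 0.14 and that of *nas-32* 0.01. The 7 astacins with 10 or more reads summed to 25.6 ± 3.35 RPM (control RNAi) and 29.0 ± 3.50 RPM (*unc-62* RNAi), as mean ± SD with n = 3 each.

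The cuticlin genes held both the lowest and the highest fold change of the 19. *cut-2* (F53F1.5), which encodes a component of cuticlin without a zona pellucida domain, had 29, 80 and 130 reads in the controls and 7, 37 and 10 reads upon *unc-62* RNAi. These were 1.91, 4.68 and 6.06 RPM against 0.409, 1.62 and 0.540 RPM, with means of 4.21 ± 2.11 and 0.856 ± 0.663 RPM (SD, n = 3 each). The groups did not overlap, although the lowest control and the highest *unc-62* library were close and the controls themselves differed widely. *cut-2* met the read filter only through the controls, where it was higher, since the first *unc-62* library had 7 reads. Pooled over the libraries, the reads of *cut-2* per mapped read upon *unc-62* RNAi were 0.208 times those of the controls (95% exact interval 0.152 to 0.280, counting error only).

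Within replicates 1, 2 and 3 the log2 fold changes of *cut-2* were -2.09, -1.58 and -3.36, lower in 3 of 3. limma's estimate was -2.34 (SE 0.39), with an unadjusted p of 0.0019 and the adjusted p of 0.12. edgeR's quasi-likelihood test gave an adjusted p of 0.12 and DESeq2 one of 0.0013, and by rank products *cut-2* had a percentage of false positives of 0.705. Without replicate 3, whose fold change was the largest, the limma estimate was smaller at -1.81 and its adjusted p 3e-05. That fit called 705 of all tested genes lower and 460 higher. Over 11 alternatives the estimate ran from -2.73 to -1.80 and the adjusted p from 3e-05 to 0.5. The direction was the same in each, but all refit the same libraries, in which each replicate was lower, so this adds no support. Whether *cut-2* passed the threshold depended on the tool, the filter, the scaling and the replicates included.

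*cutl-20* had the highest estimate, through replicate 3. It stood at 6.32, 4.74 and 1.35 RPM in the controls and at 9.64, 3.54 and 17.2 RPM upon *unc-62* RNAi. The third control was the lowest of the 6 libraries and the third *unc-62* library the highest, while replicates 1 and 2 pointed in opposite directions. The log2 fold change was 1.25 (SE 0.81, limma adjusted p = 0.63), and 0.07 without replicate 3. *cutl-20* overlaps *shc-1* on the same strand in the current annotation, by the spans of the whole genes. Whether reads of one were counted for the other was not tested. *shc-1*, which encodes an adaptor protein, had 5.53, 3.74 and 0.512 RPM in the controls and 7.77, 2.54 and 13 RPM upon *unc-62* RNAi. Its order of libraries was the same as that of *cutl-20*.

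*cutl-15* had the most reads of the cuticlin group and differed little. Its levels were 11, 8.83 and 5.17 RPM in the controls and 15.8, 10.7 and 5.24 RPM upon *unc-62* RNAi, and both groups were highest in replicate 1 and lowest in replicate 3. Its log2 fold change was 0.25 (SE 0.21, limma adjusted p = 0.70), higher in 3 of 3 replicates. *cutl-6* had a log2 fold change of -0.36 (SE 0.26, limma adjusted p = 0.67), lower in 3 of 3. It met the read filter only through the controls, with 9 reads in the second *unc-62* library. The 6 cuticlin genes with 10 or more reads summed to 18.8 ± 4.49 RPM (control RNAi) and 24.0 ± 6.37 RPM (*unc-62* RNAi), as mean ± SD with n = 3 each, so this sum did not follow *cut-2*. Summed over all 45 genes, the levels ran from 90.2 to 108 RPM in the controls and from 109 to 123 RPM upon *unc-62* RNAi, with means of 99.5 ± 9.04 and 115 ± 7.11 RPM (SD, n = 3 each). In this sum of RPM without TMM scaling every *unc-62* library was above every control, the nearest by 108 against 109 RPM. The TMM factors of the fit were 0.9228 for the second control and 1.142 for the first *unc-62* library. Divided by these factors, the second control is above that library, so the groups overlap. Each of the 4 family sums overlapped between the groups without scaling.

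**Figure D4:**
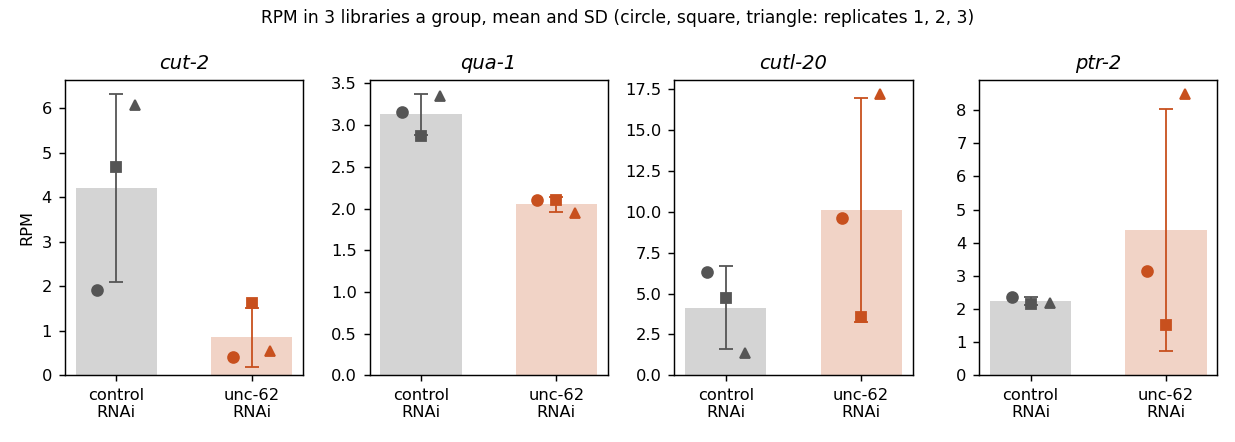
RPM of *cut-2*, *qua-1*, *cutl-20* and *ptr-2* in the 3 libraries of each group, with bars at the mean, whiskers of 1 SD and a symbol for each replicate. *cut-2* and *qua-1* are lower in every *unc-62* library, while the high mean of *ptr-2* rests on replicate 3 at 8.49 RPM.

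The 26 genes with too few reads for the test had 10 to 88 reads in all, with a median of 22.5. Their reads were pooled within each group and set against the mapped reads. The ratio of *unc-62* RNAi to control RNAi was above 1 for 16 and below 1 for 10. Its 95% exact interval covered 1 for 23, lay above 1 for 3 and lay below 1 for 0. Of all 3822 genes with 10 or more reads that were not tested, 56.7% had a ratio above 1, 11% an interval above 1 and 6.23% an interval below 1. The shares among the 26 were thus near this background. These intervals hold counting error only and not the spread between worms or libraries.

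The 3 with an interval above 1 were *grd-17*, *grd-13* and *grl-28*, all Hedgehog-related and chosen here after their values were seen. Each reached 10 reads in sum only through the *unc-62* group, with 2, 5 and 2 reads in the controls together. Their ratios, intervals and p-values are thus partly set by the filter and are no support for a change. *grd-17*, annotated as a pseudogene, had 0, 1 and 1 reads in the controls and 10, 8 and 3 upon *unc-62* RNAi, and its ratio was 9.65 (2.36 to 84.9). All 3 of its *unc-62* libraries were above all of its controls. In a limma fit widened to the 11155 genes with 10 or more reads in sum, *grd-17* had an unadjusted p of 0.013 and an adjusted p of 0.26. *grd-13* had 2, 3 and 0 reads in the controls and 2, 2 and 23 upon *unc-62* RNAi, so its ratio of 4.96 rests on 1 library. Its neighbour *grd-3* did not have its highest level in that library. *grl-28* had 1, 0 and 1 reads in the controls and 1, 5 and 5 upon *unc-62* RNAi, with a ratio of 5.05 (1.10 to 46.9).

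The other warthog genes with 10 or more reads were near even, with ratios of 0.978 for *wrt-5* and of 0.919 for both *wrt-3* and *wrt-10*. *wrt-3* overlaps the pseudogene F38E11.8 on the same strand. Of the patched-related genes, *ptr-21* had a ratio of 1.18 (0.701 to 2.01) and *ptr-20* one of 1.31 (0.727 to 2.41). *nas-36*, an astacin needed for moulting, had 0, 0 and 3 reads in the controls and 4, 5 and 2 upon *unc-62* RNAi, with a ratio of 3.37 (0.890 to 18.8). It reached 10 reads in sum only through the *unc-62* group, so this ratio is partly set by the filter. At this depth a change of such a size was not separable from counting error. *cutl-10* and *cutl-26* had their highest RPM in the third *unc-62* library and their lowest or next lowest in the third control.

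**Figure D5:**
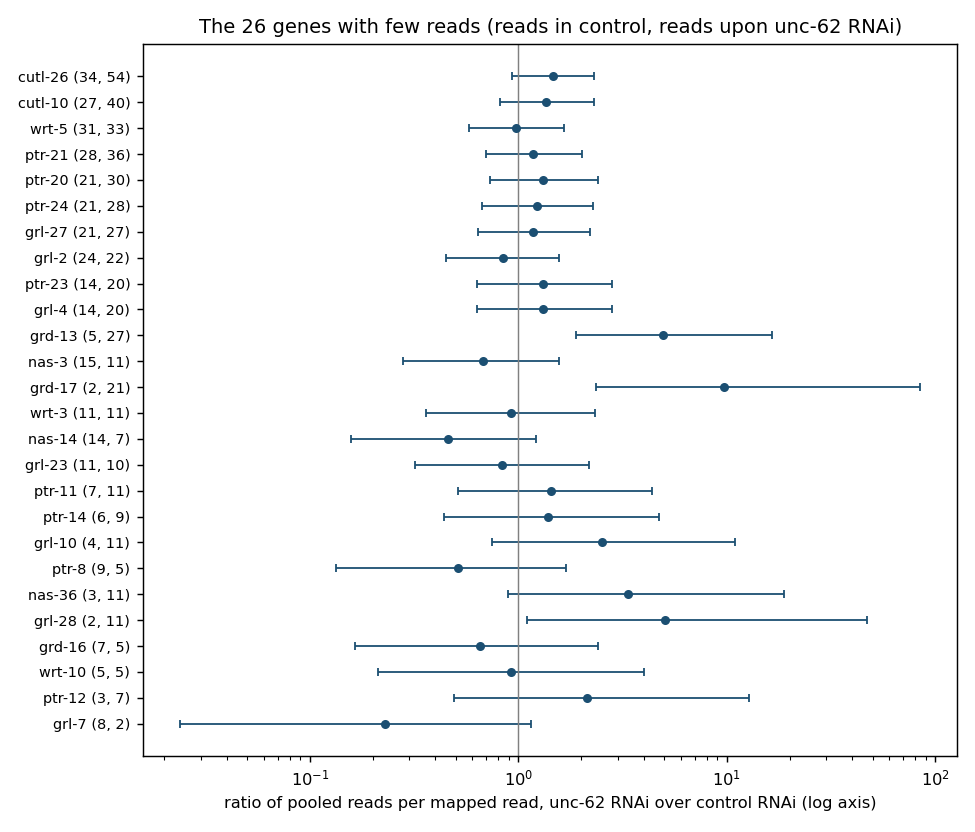
Ratio of pooled reads per mapped read, *unc-62* RNAi over control RNAi (log axis), with its 95% exact interval for the 26 genes that were not tested, and the pooled reads of each group in parentheses. The intervals of *grd-17*, *grd-13* and *grl-28* lie above 1 and the other 23 cover it.

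Replicate 3 thus carried the widest differences of these genes. The log2 fold changes of the 19 genes had an SD of 0.69 for both replicates 1 and 2 and of 1.32 for replicate 3. All tested genes gave 0.66, 0.70 and 1.23, so the wide replicate was that of the whole data set. The third *unc-62* library was the highest of the 6 for 4 of the 19 and the lowest for 5, against 19% and 31.1% of all tested genes. Among other genes, the germline helicase *glh-1* had 18.5 RPM in the third control and 371 RPM in the third *unc-62* library. The part of these libraries in the values of *cutl-20*, *ptr-2*, *cutl-10*, *cutl-26* and *grd-13* was not tested beyond leaving out the replicate.

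Few other genes of the same processes had enough reads for the test. Of 10 sterol-sensing and Hedgehog pathway relatives, 5 had 10 or more reads and 1 was tested, and 0 passed. This was *tra-1*, the Gli-type zinc finger of worm sex determination, with a log2 fold change of 0.13 (SE 0.40, limma adjusted p = 0.92). Of 3 astacins under other symbols, all 3 had 10 or more reads and *dpy-31*, a protease of collagen maturation, was tested. It stood at 3.29, 2.11 and 1.44 RPM in the controls and 1.75, 1.49 and 6.65 RPM upon *unc-62* RNAi, with a log2 fold change of 0.24 (SE 0.65, limma adjusted p = 0.91), lower in replicates 1 and 2 and higher in replicate 3.

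Of 30 moulting and apical matrix genes, 29 were measured, 13 had 10 or more reads and 2 were tested. Both had estimates under 0 and neither passed. Both met the read filter only through the controls, where they were higher, so their shared direction is no support for a decrease. Among those not tested, *mlt-10* had a ratio of pooled reads of 2.15 (1.38 to 3.45, counting error only). It had 10, 12 and 7 reads in the controls and 17, 9 and 42 upon *unc-62* RNAi. This ratio thus rests mostly on the third *unc-62* library, and replicate 2 was lower. *mlt-11* and *nekl-3* had ratios of 0.184 (0.0196 to 0.862) and 0.167 (0.018 to 0.766), with 2 reads each upon *unc-62* RNAi. They reached 10 reads in sum only through the controls, with 10 and 11 reads there. Their ratios are thus partly set by the filter and are no support for a decrease. *noah-2*, a zona pellucida protein of the apical matrix, stood at 1.38, 1.23 and 1.35 RPM in the controls and 0.876, 0.350 and 0.919 RPM upon *unc-62* RNAi. Its groups did not overlap, and its log2 fold change was -0.97 (SE 0.34, unadjusted p = 0.037, limma adjusted p = 0.33). *sym-1*, a secreted leucine-rich repeat protein of the apical matrix, had a log2 fold change of -0.83 (SE 0.29, unadjusted p = 0.036, limma adjusted p = 0.33), lower in 3 of 3 replicates.

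The summed levels of epidermal, glial, intestinal and germline markers overlapped between the groups, although single intestinal markers did not. In whole worms, fewer cells of a type and less RNA per cell cannot be told apart. The 8 measured epidermal markers, none at 0 reads, summed to 12.2 to 28.9 RPM in the controls and 15.1 to 31.4 RPM upon *unc-62* RNAi. Most of this came from *lin-26*, a zinc finger factor of epidermal fate, at 25.9, 16.3 and 10.1 RPM in the controls and 27.7, 12.6 and 27.9 RPM upon *unc-62* RNAi. The third control was again the lowest, as for *cutl-20*. The 3 glial markers summed to 0.140 to 0.790 RPM and 0.409 to 1.46 RPM. The 9 intestinal markers ranged from 3830 to 4670 RPM in the controls and from 4640 to 6880 RPM upon *unc-62* RNAi, and the 12 germline and egg markers from 650 to 747 RPM and from 683 to 961 RPM. The intestinal sum is mostly that of *cpr-1*, a cathepsin B-like protease, at 3320 to 4450 RPM in the controls and 3380 to 4670 RPM upon *unc-62* RNAi. Of the 9 intestinal markers 7 had estimates above 0 and 2 had an unadjusted limma p under 0.05. The share of all tested genes under that p was 13.4%. *ges-1*, *ifb-2* and *pept-1* met the read filter only through the *unc-62* group, where they were higher. Their direction is thus partly set by the filter and is no support for an increase. *asp-1*, an aspartic protease, stood at 467, 470 and 199 RPM in the controls and 1240, 1070 and 2200 RPM upon *unc-62* RNAi, with a log2 fold change of 1.99 (SE 0.50, unadjusted p = 0.010, limma adjusted p = 0.19). Its groups did not overlap, and those of *vha-6*, a subunit of the vacuolar proton pump, did not overlap either. The esterase gene *ges-1* had a log2 fold change of 1.06 (SE 0.37, unadjusted p = 0.036, limma adjusted p = 0.33). Only 2 of the 8 epidermal and 0 of the 3 glial markers had enough reads for the test, while all 9 intestinal and all 12 germline and egg markers did. None of those tested passed, and the part of these markers in the values above was not tested.

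The transcript of *unc-62* itself had 27, 31 and 26 reads in the controls and 17, 39 and 25 upon *unc-62* RNAi. Its log2 fold change of -0.27 (SE 0.28, limma adjusted p = 0.75) did not pass, so its level at the 3′ end does not tell the groups apart. The 6 vitellogenin genes, which encode yolk proteins made in the intestine, were all called lower in the libraries labelled *unc-62* RNAi. Together with *unc-62* they summed to 28400 to 46600 RPM in the controls and 3540 to 5260 RPM upon *unc-62* RNAi. None of the 19 tested genes had a change past the threshold in the same fit, and the other 26 were not in it. In the fit widened to 11155 genes, which held all 45, *cut-2* alone of the 45 passed, at a limma adjusted p of 0.072. That fit called 104 of all its genes lower and 48 higher.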

How the data were processed

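Polyadenylated RNA (400 ng) of 3 control RNAi and 3 *unc-62* RNAi samples was sequenced from its 3′ ends as 36-base reads. The authors used CASAVA 1.7.0 and mapped reads with Bowtie 0.12.7 to WS215. Unique sense-strand reads were counted for each transcript, and the deposited signal is RPM, reads scaled to the uniquely mapped reads of the library. Of 153186 values, 100.0% gave whole reads (within 0.01 read). The 2 identifiers that name no gene held 0 reads. Columns sum to 2160231.3 to 2236967.3, since several transcripts of a gene are listed. Library sizes were 15188765 to 22868980 mapped reads, and intervals and floors cover counting error only.

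From these values, symbols were matched to sequence names through WBcel235 (7279 of 7333 tested genes). limma 3.58.1 was fitted to log2(RPM + 0.05) with TMM scaling (edgeR 4.0.16), a variance trend and the replicate number as a block, at a Benjamini-Hochberg adjusted p under 0.1. DESeq2 1.42.0, edgeR's quasi-likelihood test and rank products (10000 permutations) were alternatives. limma, edgeR and rank products were tested on simulated data, and DESeq2 was not. p-values measure the spread between samples of 3 divided batches. Values are given for called genes, in each family the 3 tested genes with most reads and the extremes of fold change, genes changed one way by 1 log2 unit or more in all replicates, genes with 0 reads in 1 group only, and *unc-62*. The genes, lists and markers were chosen with earlier results of these data known, and the text names further genes by the same values. Coordinates are not printed, since the builds differ.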

Additional observations from a re-analysis of the deposited data

How the results depend on the processing

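Of 209 recomputed fold changes of the 19 tested genes (11 alternatives each), 194 kept their direction and side of the threshold, 5 newly passed it and 10 reversed. All tested genes called lower or higher numbered 60 and 36, and 192 and 102 with DESeq2, 115 and 67 by rank products. Genes with 10 or more reads in sum gave 104 lower, and the fit without the replicate block 60 higher. One of the 19 was called lower with DESeq2, by rank products, among genes with 10 or more reads in sum, and in an alternative added after seeing the data (TMM with all mapped reads as library size): *cut-2* each time. Leaving out 1 replicate gave 0 to 705 genes lower, 0 to 460 higher and 0 to 2 of the 19 lower. The 2 were *cut-2* and *grd-10* without replicate 3. Without replicate 1 limma called 0 genes, with 506 at an unadjusted p under 0.05. Without replicate 2 it called 19 lower and 4 higher. Over these left-out replicates the estimates ran from -0.01 to 0.40 for *grd-3*, -0.21 to 0.71 for *grl-32*, -0.64 to 0.14 for *nas-11*, -0.16 to 0.01 for *nas-32*, -0.07 to 0.19 for *ptc-1*, -0.32 to 0.25 for *ptc-3*, -0.06 to 1.17 for *ptr-2* and -0.11 to 0.40 for *ptr-25*. edgeR gave 0.01 for *ptc-3*. The cause of these changes was not tested. Deviations of same-numbered libraries correlated at 0.417, 0.198 and -0.183 for replicates 1, 2 and 3, so the numbers do not settle the pairing. Without the block none of the 19 was called. Depth limited the test to 19 of 45 genes.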
